A study of Callithrix jacchus and Rattus norvegicus and Loxodonta africana with 31 samples.

Results

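The proteasome subunit genes are the genes whose symbol is PSMA, PSMB, PSMC, PSMD, PSME or PSMF followed by a number. They were chosen by symbol alone, ignoring case, in the name column of 3 expression tables, those of the common marmoset, the rat and the tammar wallaby, and the rule uses no measured value. There were 93 such entries among 54059 genes, with 44 different symbols. Of them, 45 were among the 20486 genes of the rat, 38 among the 13892 of the wallaby and 10 among the 19681 of the marmoset. Only 7900 marmoset genes carried a name in the table, so 30 further marmoset proteasome entries were named from other sources. Either their Ensembl IDs were matched to an Ensembl name table or their LOC numbers in the name column to a RefSeq table. These 30 are called the added marmoset entries below and are not counted among the 93.

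The proteasome is the barrel-shaped protease that degrades ubiquitin-tagged proteins in every eukaryotic cell. Its 20S core is made of rings of alpha (PSMA) and beta (PSMB) subunits, with the active sites in PSMB5, PSMB6 and PSMB7, and the 19S cap of PSMC ATPases and PSMD non-ATPases binds, unfolds and feeds in the substrate. Variant subunits make variant particles: interferon-inducible PSMB8, PSMB9 and PSMB10 replace the standard catalytic subunits in the immunoproteasome that cuts peptides for MHC class I, PSMB11 is the thymic catalytic subunit, and PSMA8 replaces PSMA7 in mouse male germ cells. PSME1 and PSME2 form the interferon-inducible PA28 activator, PSME3 and PSME4 (PA28-gamma and PA200) are nuclear activators, and PSMF1 (PI31) was first described as an inhibitor of the core.

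The series concerned the gene content of the mammalian Y chromosome and sequenced polyadenylated RNA of 31 samples. In marmoset and rat, heart, kidney, liver and brain each had 1 column of values from a male and 1 from a female animal, both called individual 1 of their sex, ovary had 1 female column, and testis had 1 male column. The rat testis was from 1 male, whereas the marmoset testis column stood for 3 labelled samples of 2 males and is the authors' value for them. The wallaby had 1 testis and 1 liver library, both from 1 male. The labels give no strain, age, genotype or treatment for any group, and the 3 elephant fibroblast samples were not analysed here. For the brain, the labels list a frontal cortex and a cerebellum sample for each sex, whereas the deposited values have 1 brain column for each sex. Markers of both regions were present in all of these columns, and the summed level of 8 cerebellar markers was 717 FPKM in the male rat brain and 121 FPKM in the female.

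Levels are in FPKM, read fragments scaled by transcript length and by library size, and the tables describe them as normalized across tissues by a method that is not given. Because FPKM is per length, levels may be compared between genes. The values come without read counts, so their depth is unknown and the size of their counting error cannot be stated. A gene with an exact 0 is said to be listed at 0. Differences below are on the log2(FPKM + 1) scale, which understates the change of genes at low level. The exception is values taken relative to the core subunits, which are on the log2 FPKM scale with nothing added. Each somatic tissue was set against the mean of the other 3 with limma, with the animal as a block. A gene was called higher or lower at a Benjamini-Hochberg adjusted p below 0.05 over all genes and a difference of at least 1. Each tissue had n = 2 columns, 1 per sex. With the animal as a block, the p-values measure how far the tissue differences disagreed between the 2 animals, pooled over the tissues. They do not measure the spread between animals. Testis and ovary had 1 column each and have no p-value: a gene was called where it lay at least 1 above the highest or below the lowest of the 8 somatic columns. In these bulk samples fewer cells of a type and less RNA per cell cannot be told apart.

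The defining markers of each tissue were present in it, with the exception of FGB and SERPINA1, listed at 0 in the male marmoset liver. Of the male germ cell markers, all 10 listed genes reached 1 FPKM in the rat testis, all 6 annotated ones in the wallaby testis and 2 of 5 in the marmoset testis. The columns did not share a total. In the rat they summed to between 457975 FPKM in ovary and 3551200 FPKM in the male heart, where mitochondrial genes made up 2780190 FPKM. Rescaling each column to 1 total moved the median difference of all rat genes to -1.09 in heart, -0.54 in liver, 0.54 in kidney and 0.82 in brain, against -0.11, -0.06, -0.07 and -0.28 as deposited. For this reason ratios between genes of the same column, which no scaling alters, are given beside the differences between columns.

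In the rat, 43 of the 45 members reached 1 FPKM in at least 2 somatic columns. The exceptions were Psma8, the germ cell alpha subunit, and Psmb11, the thymic beta subunit. Psmb11 lay between 0 and 0.621 FPKM in all 10 columns, with the highest value in the male brain. The standard 20S and 19S subunits that reached 1 FPKM in every column, called the core below, numbered 31. Within a column the core subunits were not at 1 level: the SD of their log2 FPKM ranged from 0.75 in the female brain to 1.37 in testis. The 7 beta subunits of the core had the highest median in every somatic column. In liver their median was 195 FPKM in the male and 150 FPKM in the female, above the medians of 74.5 and 94.2 FPKM for the alpha subunits, 60.6 and 50.8 FPKM for the ATPases and 47.4 and 42.4 FPKM for the non-ATPases. Testis was the only rat column in which the ATPases had the highest median, 45.3 FPKM, against 34.8 FPKM for the beta subunits, 21.2 FPKM for the non-ATPases and 18.9 FPKM for the alpha subunits.

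**Figure D1:**
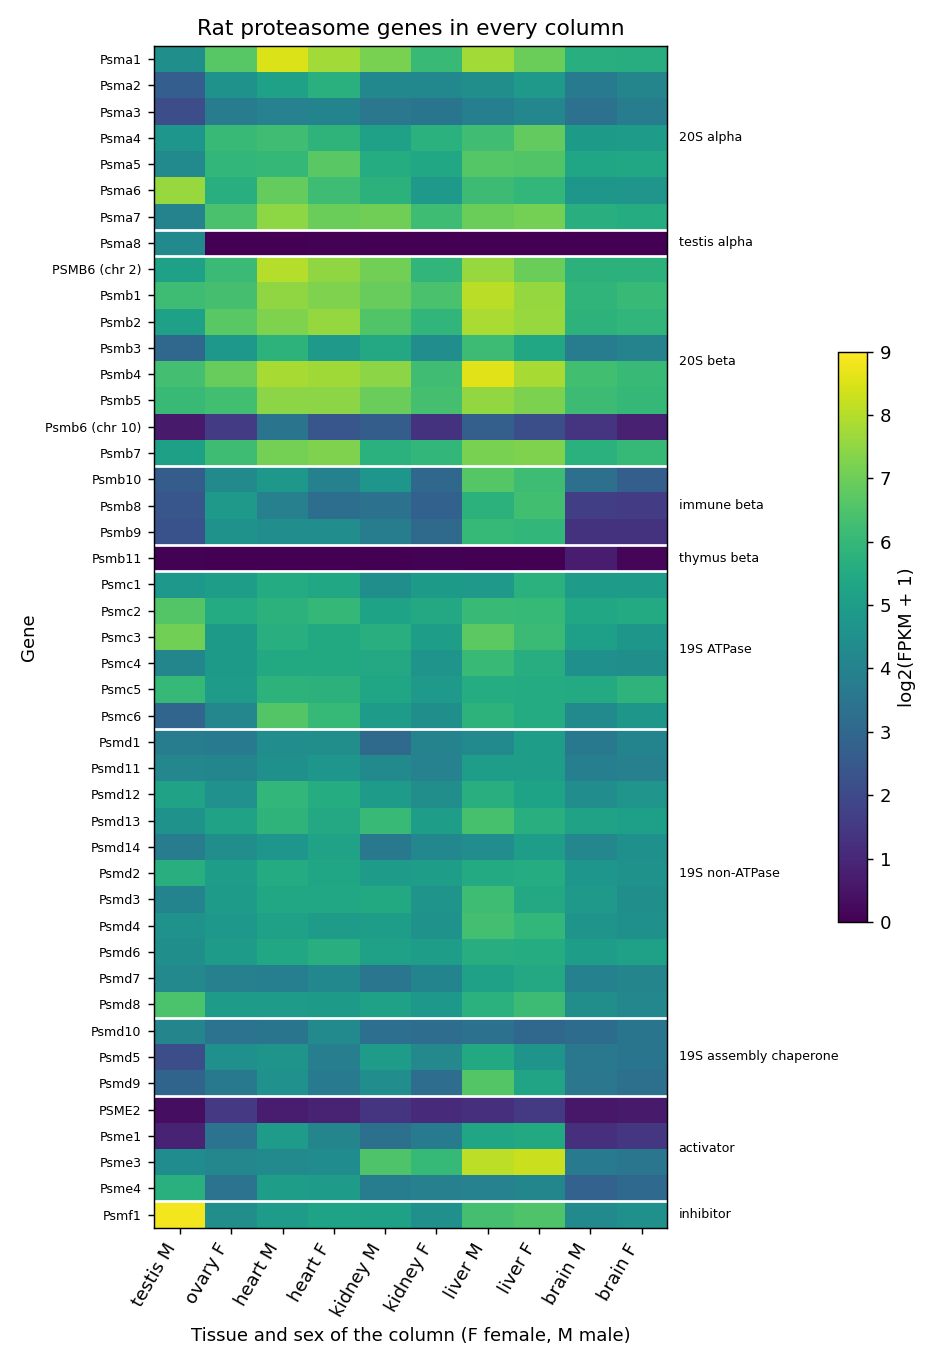
Level of the 45 rat proteasome genes (rows, grouped by role) in the 10 rat columns; colour is log2(FPKM + 1), F female, M male. Psma8 stands out from 0 in testis alone, Psmf1 is brightest in testis at 456 FPKM, and Psmb8, Psmb9, Psmb10 and Psme3 are brightest in the 2 liver columns.

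The immune catalytic subunits were highest in rat liver, and among them Psmb8 and Psmb9 were lowest in rat brain. Psmb8, the immune counterpart of Psmb5, was at 53.6 FPKM in the male and 76.3 FPKM in the female liver, against 14.2 and 8.48 FPKM in heart, 9.61 and 5.89 FPKM in kidney and 2.17 and 1.94 FPKM in brain. Both liver columns lay above every other column, gonads included, and both brain columns lay below every other. In liver Psmb8 rose by 3.26 (SE 0.27, limma adjusted p = 0.000137), and in brain it fell by 2.62 (SE 0.27, adjusted p = 0.000233).

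Psmb9, the immune counterpart of PSMB6, was at 63.6 FPKM in the male and 62.0 FPKM in the female liver, against 20.3 and 20.4 FPKM in heart, 12.8 and 7.60 FPKM in kidney and 1.48 and 1.47 FPKM in brain. The order was the same as for Psmb8, with no overlap between liver, brain and the rest. It rose by 2.94 in liver (SE 0.21, limma adjusted p = 7.93e-05) and fell by 3.31 in brain (SE 0.21, adjusted p = 3.06e-05). Psmb10, the immune counterpart of Psmb7, was at 97.8 FPKM in the male and 72.8 FPKM in the female liver, against 26.8 and 14.5 FPKM in heart, 25.2 and 7.19 FPKM in kidney and 9.09 and 5.56 FPKM in brain. Liver was again highest, but the male brain overlapped the female kidney. Psmb10 rose by 2.66 in liver (SE 0.27, limma adjusted p = 0.000337) and fell by 1.86 in brain (SE 0.27, adjusted p = 0.00115).

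The standard catalytic subunits differed less between tissues. Psmb5, the chymotrypsin-like subunit, was at 185 FPKM in the male and 150 FPKM in the female liver, against 173 and 171 FPKM in heart, 121 and 79.7 FPKM in kidney and 70.3 and 62.4 FPKM in brain. Liver and heart overlapped, and its difference of 0.68 in liver (SE 0.22) was below the threshold of 1. Psmb7, the trypsin-like subunit, was at 146 and 150 FPKM in the male and female liver, against 139 and 153 FPKM in heart, 52.8 and 61 FPKM in kidney and 52.6 and 64.7 FPKM in brain. Heart and liver were again alike in range, as were kidney and brain. The caspase-like subunit had a main entry, PSMB6 on chromosome 2 (34.8 to 255 FPKM), and a second entry, Psmb6 on chromosome 10 (0.581 to 9.95 FPKM). How the authors' counting shared reads between these copies is not given, so the level of each is uncertain and ratios use their sum.

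Within a column, the immune subunits made up a larger part of the catalytic set in rat liver than in the other somatic columns. Psmb8 over Psmb5 was 0.289 in the male and 0.508 in the female liver, against 0.0309 to 0.0820 in the other 6 somatic columns. Psmb9 over the PSMB6 sum was 0.317 and 0.481 in liver, against 0.0264 to 0.123. Psmb10 over Psmb7 was 0.668 and 0.484 in liver, against 0.0859 to 0.478, so that the female liver and the male kidney were almost level. The first pair of ratios was lowest in the brain columns, at 0.0309 and 0.0310 for Psmb8 and at 0.0264 and 0.0270 for Psmb9. Summed over the 3 pairs, immune over standard was 0.404 in the male and 0.491 in the female liver, 0.319 in ovary, 0.10 in testis, 0.106 and 0.0855 in heart, 0.152 and 0.102 in kidney, and 0.0712 and 0.0494 in brain.

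**Figure D2:**
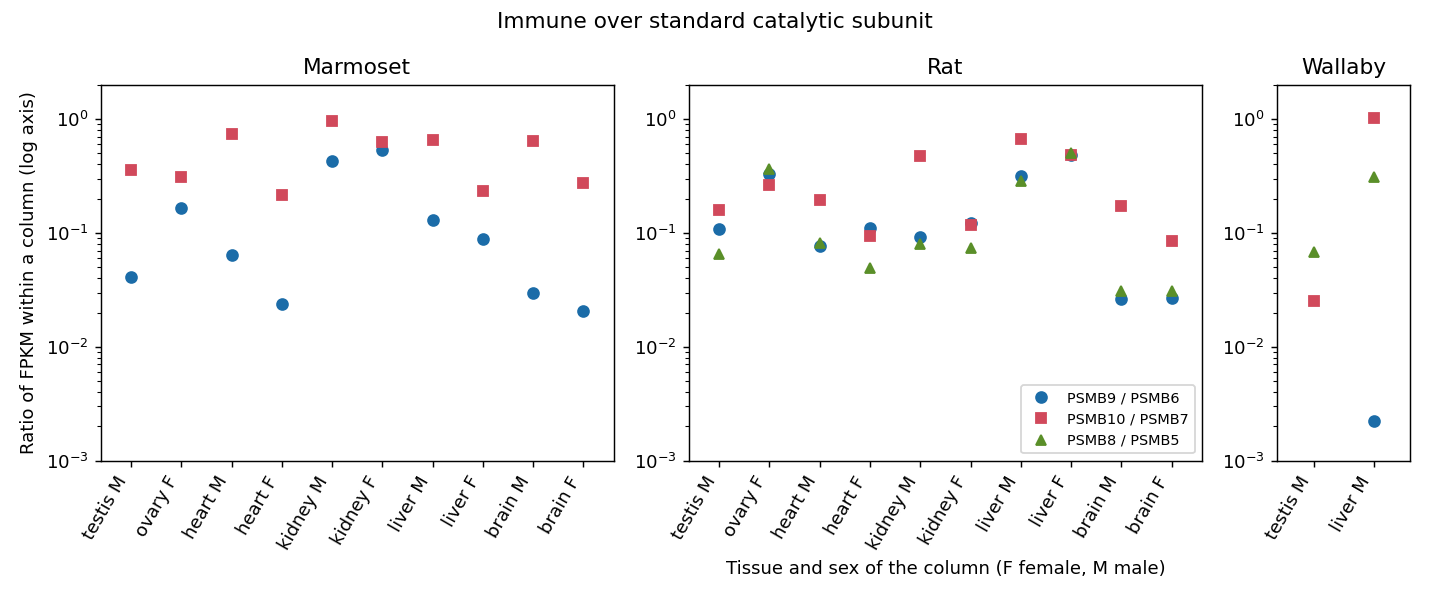
FPKM of each immune catalytic subunit over its standard counterpart within a column (log axis), by tissue and sex, in marmoset, rat and wallaby; each point is 1 column, PSMB8/PSMB5 is not drawn for the marmoset and the wallaby testis PSMB9/PSMB6 of 0 is not on the axis. Rat liver has PSMB9/PSMB6 of 0.317 and 0.481, while in the marmoset the kidney has the highest, 0.425 and 0.531.

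Leukocytes carry high levels of these subunits, and their markers differed among themselves in the rat. The 9 listed leukocyte genes summed to 184 FPKM in the male and 144 FPKM in the female liver, against 1043 and 542 FPKM in heart, 849 and 395 FPKM in kidney and 27.2 and 36.9 FPKM in brain. The sum was mostly Cd74, the MHC class II invariant chain, at 118 and 103 FPKM in liver and 1014 and 528 FPKM in heart. The median of the 9 genes was instead highest in liver, at 2.70 FPKM in the male and 3.14 FPKM in the female, against 0.63 to 2.23 FPKM in the other 6 somatic columns. Of 6 leukocyte markers tested 2 were called higher in liver and none lower, where 19.6 percent of all genes rose and 19.1 percent fell. In heart 1 of the 6 was called higher and in kidney 1, against 16.7 and 11.9 percent of all genes. Those higher in liver were the macrophage gene Cd68 (44.2 and 21.0 FPKM in liver, 0.88 to 14.3 FPKM in the other somatic columns) and the integrin gene Itgb2. The part of these markers in the liver result was not tested. In brain the marker sum was at its lowest among the somatic columns, as were Psmb8 and Psmb9, and this too was not tested.

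Among the activators, Psme1 had the same order of tissues as the immune subunits and Psme4 did not. Psme1, the alpha subunit of PA28, was at 38.0 FPKM in the male and 43.0 FPKM in the female liver, against 29.5 and 16.1 FPKM in heart, 8.92 and 11.7 FPKM in kidney and 1.35 and 1.69 FPKM in brain. The liver columns were highest and the brain columns lowest among the 8, with a rise of 2.26 in liver (SE 0.27, limma adjusted p = 0.000589) and a fall of 3.13 in brain (SE 0.27, adjusted p = 0.000110). Its partner PSME2 was listed between 0.256 and 1.91 FPKM over all 10 columns, too low for a comparison of levels.

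Psme3, the nuclear PA28-gamma, was at 275 FPKM in the male and 312 FPKM in the female liver, against 18.5 and 19.8 FPKM in heart, 91.1 and 63.9 FPKM in kidney and 11.9 and 10.7 FPKM in brain. Liver, kidney, heart and brain thus formed 4 separate levels with no overlap. It had the largest rise of any member in liver, 3.46 (SE 0.22, limma adjusted p = 4.50e-05), and fell by 2.65 in brain (SE 0.22, adjusted p = 8.85e-05) and by 1.70 in heart (SE 0.22, adjusted p = 0.000938). Psme3 exceeded Psmb7 in both liver columns, with ratios of 1.88 and 2.08, whereas in heart the ratio was 0.134 and 0.129. Psme4, the PA200 activator, was highest in heart among somatic tissues, at 31.2 FPKM in the male and 29.6 FPKM in the female, against 14.9 and 16.6 FPKM in liver, 12.8 and 14.0 FPKM in kidney and 6.06 and 7.40 FPKM in brain. Its rise of 1.35 in heart (SE 0.17, limma adjusted p = 0.000948) was -0.22 after rescaling to 1 total, while relative to the core both heart columns lay above every other somatic column. Over Psmb7 it was highest in kidney, with ratios of 0.243 and 0.229 in the male and female, against 0.225 and 0.193 in heart and 0.102 to 0.115 in liver and brain.

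Over all 43 tested rat members, 16 rose and none fell in liver, where 19.6 percent of all 14560 genes rose and 19.1 percent fell. The median difference of the members was 0.78, against -0.06 for all genes. The immune, activator and inhibitor genes accounted for 6 of the 16 (6 of 8 tested), the standard 20S subunits for 5 of 15 and the 19S subunits for 4 of 17. The last was Psmd9, a chaperone of 19S assembly, with a difference of 2.13 (SE 0.25, limma adjusted p = 0.000583). Psmf1, the PI31 inhibitor, was at 79.7 FPKM in the male and 91.1 FPKM in the female liver, against 30.5 and 36.3 FPKM in heart, 34.2 and 22.0 FPKM in kidney and 18.8 and 21.7 FPKM in brain, and rose by 1.65 (SE 0.24, adjusted p = 0.00134). After rescaling to 1 total 6 members rose in liver and none fell, and the difference of Psmf1 was then 0.98, below the threshold; without the brain columns 9 rose. Psmb8, Psmb9, Psmb10, Psme1 and Psme3 were called higher in liver under each of the 14 alternatives tried.

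In rat brain 21 of 43 members fell and none rose, where 27.1 percent of all genes fell and 17.6 percent rose, with a median of -0.97, against -0.28 for all genes. Here the core and the cap parted: 11 of 15 standard 20S subunits fell, but 1 of 17 19S subunits did, the ATPase Psmc6 (difference -1.05, SE 0.25, limma adjusted p = 0.0102). The median difference was -1.25 for the 20S and -0.66 for the 19S subunits. Psma1 had the largest fall among the standard subunits: it was at 50.1 and 47.6 FPKM in the male and female brain, against 370 and 212 FPKM in heart, 217 and 125 FPKM in liver and 145 and 66.3 FPKM in kidney (difference -1.74, SE 0.26, adjusted p = 0.00131). The brain columns were its lowest among the 8. Rescaling to 1 total gave 7 members higher and 4 lower in brain, so the fall of most 20S subunits there depends on the scale. The share of all genes called after rescaling is not given, so these 2 counts cannot be set against it. Without the male brain column 10 members fell. Psmb8, Psmb9, Psme1 and Psme3 were called lower in brain under all 13 alternatives, and Psmb10 under 12 of 13.

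Rat heart had 8 members higher and 1 lower of 43, against 16.7 and 17.3 percent of all genes. The 20S subunits Psma1 (1.59, SE 0.26, limma adjusted p = 0.00278), PSMB6 (1.22, SE 0.27, adjusted p = 0.00863), Psma2 (1.19, SE 0.20, adjusted p = 0.00292) and Psma6 were among those higher, as were the ATPase Psmc6 (1.32, SE 0.25, adjusted p = 0.00502), Psme4 and Psme1. After rescaling to 1 total no member was higher in heart and 25 were lower. The differences of Psma1, PSMB6, Psma2, Psma6, Psmc6, Psme4 and Psme1 were then all negative. With scaling to 1 median Psma1 (1.47), Psme4 (1.24), Psma6 (1.06) and Psme1 (1.03) were still called higher and Psme3 (-1.81) lower. Without the male heart column or without the brain columns 4 members were called. Relative to the core, 6 genes lay above every other somatic column in both hearts: Psma1, PSMB6, Psma6, Psme4, Psmc6 and Psma2, where 9.36 percent of all genes did. Below every other somatic column in both hearts lay 5 genes, Psmd8, Psmd4, Psmc3, Psme3 and the low PSME2, against 17.5 percent of all genes. In rat kidney limma called no member, where 11.9 percent of all genes were called higher and 11.1 percent lower. At an unadjusted limma p under 0.05, without the threshold on the difference, were 14 of 43 members. The share of all genes at that p is not given. Of the 43 differences 39 were negative, with a median of -0.42, against -0.07 for all genes. The share of all genes with a negative difference is not given. These signs depend on the scale. After rescaling to 1 total the kidney differences of Psma1, Psma6 and Psmb5 were 0.45, 0.39 and 0.54, and that of Psmb7 was -0.05. Without the brain columns, 11 members were called lower in kidney.

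**Figure D3:**
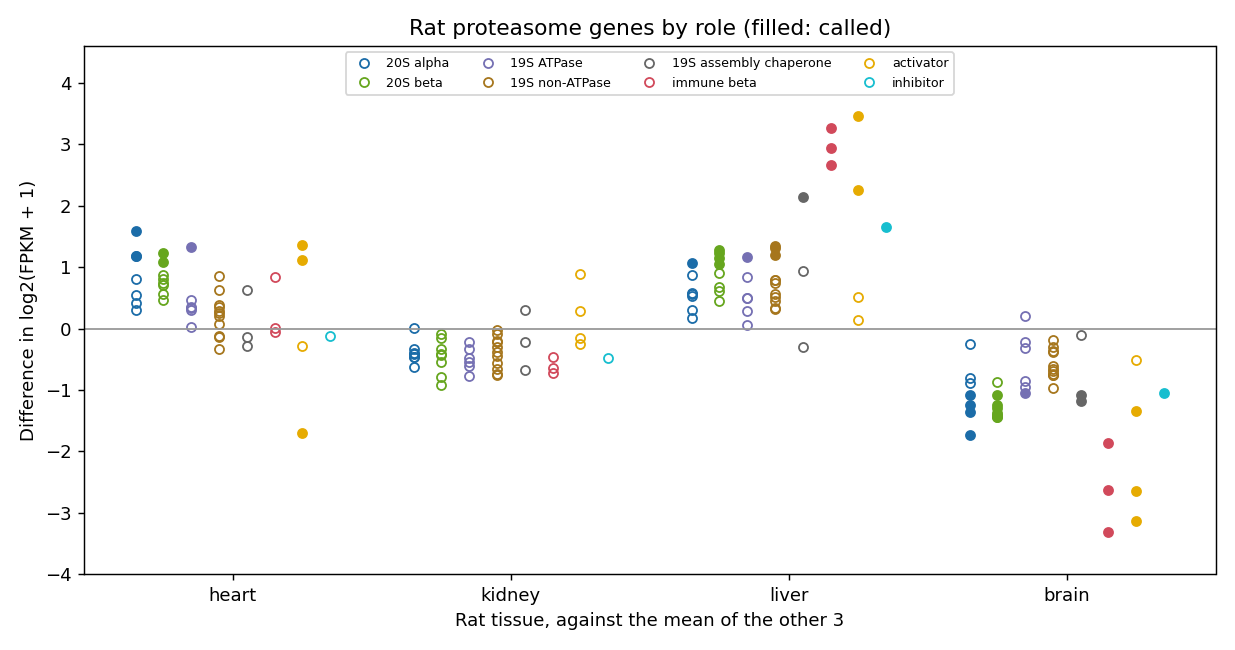
Difference in log2(FPKM + 1) between each rat tissue and the mean of the other 3, 1 point per gene, coloured by role and filled where called. In liver the immune beta subunits lie between 2.66 and 3.26 and in brain between -3.31 and -1.86, while the 19S subunits stay between 0.06 and 1.34 in liver and between -1.05 and 0.20 in brain.

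Relative to the median core subunit of the same column, the scale on which a rescaling of the columns has no effect, 9 rat genes lay above every other somatic column in both livers. They were Psmb8, Psmb9, Psmb10, Psme3, Psmf1, Psmd9, the beta subunit Psmb1, the ubiquitin receptor Psmd4 and the ATPase Psmc3, whereas Psmd10 and Psmc5 lay below every other. Of all 13415 genes with a value above 0 in each somatic column, 7.6 percent lay above and 27.1 percent below in this way. In both brain columns 8 genes lay below every other somatic column, Psmb8, Psmb9, Psme1 and the 20S subunits Psmb1, Psma1, PSMB6, Psma6 and Psmb5, and 3 cap subunits lay above, Psmc1, Psmc5 and Psmd6, against 11.5 percent of all genes below and 25.8 percent above.

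In the marmoset the members named in the table were 8 standard subunits, the assembly chaperone PSMD5 and PSME4. In brain 2 of 10 fell and none rose, where 28.8 percent of all 15100 genes fell and 17 percent rose. These were PSMB3, a 20S beta subunit, at 24.1 FPKM in the male and 13.1 FPKM in the female brain, against 33.2 to 136 FPKM in the other 6 somatic columns (difference -1.84), and the cap subunit PSMD3 (difference -1.01). In liver the same 2 genes rose and none fell, where 21.3 percent of all genes rose and 16.5 percent fell. PSMD3 was at 307 FPKM in the male and 113 FPKM in the female liver, against 239 and 52.8 FPKM in heart, 92.0 and 38.3 FPKM in kidney and 66.3 and 42.2 FPKM in brain. Its difference was 1.39 (SE 0.30, limma adjusted p = 0.00807), but the female liver lay below the male heart, and with either liver column left out it was no longer called. PSMB3 differed by 1.19 in liver (SE 0.22, limma adjusted p = 0.00399). After rescaling to 1 total both values in liver were negative, -0.45 for PSMB3 and -0.27 for PSMD3, and that of PSMD3 in brain was 0.58. No member was called in heart (13.1 percent of all genes higher, 18.2 percent lower) or kidney (13.7 and 9.89 percent) by limma. At an unadjusted limma p under 0.05 alone were 6 and 4 of 10, and the share of all genes at that p is not given. All 10 differences were positive in heart and all 10 negative in kidney. Their medians were 0.71 and -0.45, against -0.17 and 0.004 for all genes. The share of all genes in each direction is not given.

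The added marmoset entries hold the immune subunits, and of these PSMB8 and PSMB9 were highest in kidney. PSMB9 was at 30.9 FPKM in the male and 20.8 FPKM in the female kidney, against 15.7 and 9.16 FPKM in liver, 9.15 and 1.96 FPKM in heart and 1.07 and 0.671 FPKM in brain. PSMB8 was at 33.9 and 30.7 FPKM in the male and female kidney, against 24.2 and 11.6 FPKM in liver, 14.1 and 6.23 FPKM in heart and 1.41 and 1.00 FPKM in brain. For both genes the kidney columns were the highest and the brain columns the lowest of the 8. They were the 2 of 29 tested added entries called higher in kidney, where 13.7 percent of all genes were. Their differences were 2.37 for PSMB9 and 2.16 for PSMB8. Both were also among the 15 of 29 that fell in brain, where 28.8 percent of all genes fell.

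PSMB9 over PSMB6 was 0.425 in the male and 0.531 in the female marmoset kidney, against 0.0205 to 0.129 in the other 6 somatic columns, 0.165 in ovary and 0.0410 in testis. PSMB10 did not follow: its level was 160 FPKM in the male heart and 129 FPKM in the male liver, against 24.1 and 22.0 FPKM in the female heart and liver, and the kidney columns were 80.8 and 32.7 FPKM. The male heart and liver thus lay above both kidney columns and the female heart and liver below them. No PSMB5 entry of the marmoset was analysed, so the ratio of PSMB8 to its standard counterpart cannot be given. Relative to the core, 6 genes lay above every other somatic column in both kidneys, namely PSMB9, PSMB8, PSMA7, PSME1, PSMA5 and PSMD6, where 12.3 percent of all genes did. PSMD4 lay below every other somatic column in both, as did 1.39 percent of all genes. In both brain columns PSMB7, PSMB9, PSMB8, PSMB3 and PSME1 lay below and PSMD7 and PSMC4 above, where 9.66 percent of all genes lay below and 28.3 percent above. The leukocyte markers summed to 2846 FPKM in the male and 1778 FPKM in the female kidney and to 2874 and 1434 FPKM in liver, against 120 and 54.3 FPKM in heart and 22.6 and 10.9 FPKM in brain. Of 8 leukocyte markers tested 7 were called higher in kidney and 4 in liver, against 13.7 and 21.3 percent of all genes. The part of these markers in the kidney result was not tested. The difference between rat and marmoset in which tissue was highest was not tested.

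PSMA8 reached 1 FPKM in testis alone in all 3 species. In the wallaby PSMA8 was at 133 FPKM in testis and listed at 0 in liver. In the rat it was at 18.4 FPKM in testis, listed at 0 in 6 of the other 9 columns and at most 0.0317 FPKM in the rest. In the marmoset, where it is an added entry, it was at 1.05 FPKM in testis and listed at 0 in the other 9 columns. PSMA7, the alpha subunit whose place PSMA8 takes in the mouse, was at 9.70 FPKM in wallaby testis against 125 FPKM in liver. In the rat PSMA7 was at 15.2 FPKM in testis, against 46.4 to 177 FPKM in the 8 somatic columns, more than 1 below the lowest of them (1.55 on the log2 scale). In the marmoset PSMA7 was at 66.4 FPKM in testis, within the range of the somatic columns (24.5 to 125 FPKM).

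PSMA8 over PSMA7 was therefore 13.7 in wallaby testis, 1.21 in rat testis and 0.0157 in marmoset testis. PSMA8 made up 93.2, 54.7 and 1.55 percent of the summed PSMA7 and PSMA8 FPKM in these 3 columns. The germ cell markers stood in the same order. They summed to 82509 FPKM over 6 genes in the wallaby, 17315 FPKM over 10 in the rat and 31.8 FPKM over 5 in the marmoset, where the early germ cell gene DDX4 was at 29.8 FPKM and the spermatid genes TNP1, ODF1 and ACRV1 were at 0.169, 0.0542 and 0.0346 FPKM. The part of germ cell content in the difference between species was not tested.

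**Figure D4:**
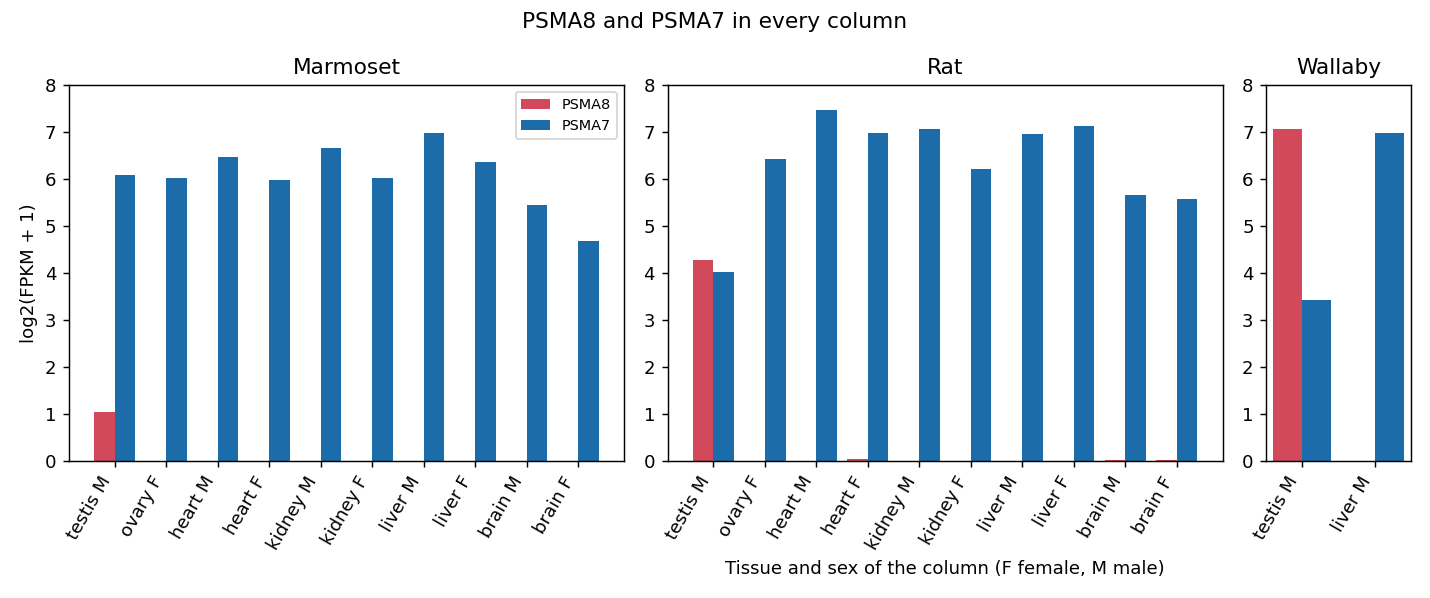
PSMA8 and PSMA7 in every column of the 3 species, as log2(FPKM + 1) bars from 0, each bar 1 column. Testis PSMA8 stands above PSMA7 in wallaby (133 against 9.70 FPKM) and slightly above it in rat (18.4 against 15.2 FPKM), and far below it in marmoset (1.05 against 66.4 FPKM).

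In rat testis 2 of 44 members were called higher, Psma8 and Psmf1, and 5 lower, where 18.5 percent of all 17208 genes were higher and 5.68 percent lower. Psmf1 was at 456 FPKM in testis, against 18.8 to 91.1 FPKM in the 8 somatic columns, 2.31 above the highest of them on the log2 scale. It was the most abundant proteasome gene of that column, and Psmf1 over Psmb7 was 13.5. Psma6, a standard alpha subunit, was at 196 FPKM in testis, against 24.7 to 118 FPKM in the somatic columns, and Psme4 was at 51.6 FPKM, against 6.06 to 31.2 FPKM. Both lay above every somatic column by less than 1, and both were called higher with either scaling alternative. The 5 called lower were the alpha subunits Psma7, Psma1 and Psma3, the ATPase Psmc6 and the assembly chaperone Psmd5. Psma1 was at 21.1 FPKM in testis, against 47.6 to 370 FPKM in the somatic columns. Psmc6 was at 6.64 FPKM, against 18.5 to 94.3 FPKM. Psmd5 and Psma3 were at 3.5 and 3.41 FPKM in testis, against lowest somatic values of 10.2 and 9.48 FPKM. Rescaling to 1 total called 9 higher and none lower, so these 5 calls depend on the scale. With scaling to 1 median Psma1 and Psma7 were still called lower, at -2.24 and -2.38 from the somatic mean.

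Counting position alone, 9 of 44 rat members lay above all 8 somatic columns in testis and 21 below all of them. Over all genes tested, 27.7 percent lay above and 23.3 percent below. The immune subunits were low but not all lowest there. Psmb8 and Psmb9 were at 4.28 and 3.83 FPKM, above both brain columns, and Psmb10 at 5.36 FPKM, just under the female brain at 5.56 FPKM. Psme1 was at 0.799 FPKM in testis, below the lowest somatic value of 1.35 FPKM. Psme3, at 19.9 FPKM, lay within the somatic range.

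In wallaby testis 29 of 37 members were lower than in liver by at least 1 and PSMA8 was higher, where 48.6 percent of all 11467 genes were lower and 23.2 percent higher. The wallaby had 1 library per tissue, so these differences have no replicate check. The median difference was -2.15 for the members and -0.93 for all genes. After rescaling to 1 total 12 members were lower and 8 higher, so the count rests on the scale. The immune genes lay furthest down: PSMB10 was at 1.18 FPKM in testis against 144 FPKM in liver (-6.06), PSMB8 at 3.32 against 119 FPKM (-4.79) and PSME1 at 1.52 against 65.3 FPKM (-4.72). PSME2 was at 9.09 FPKM in testis against 176 FPKM in liver, and PSMB9 was listed at 0 in testis and at 0.729 FPKM in liver. The summed immune over standard catalytic ratio was 0.0350 in testis and 0.311 in liver. The leukocyte markers summed to 5.59 FPKM in testis and 869 FPKM in liver, and their part was not tested.

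The standard catalytic subunits were also lower in wallaby testis, by less. PSMB5 was at 49.2 FPKM in testis against 379 FPKM in liver, PSMB6 at 32.9 against 328 FPKM and PSMB7 at 46.5 against 141 FPKM. The largest differences among standard subunits were those of PSMB3, at 30.0 against 649 FPKM (-4.39), and PSMA1, at 22.9 against 428 FPKM (-4.16). Set against these, PSMA6 was at 379 FPKM in testis and 357 FPKM in liver, PSMF1 at 145 and 82.7 FPKM, PSME4 at 33.4 and 21.1 FPKM and PSME3 at 41.0 and 46.4 FPKM. PSMA6 was the most abundant proteasome gene of wallaby testis, 21.0 times PSMA5 there, and in rat testis it was 10.4 times Psma5.

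The make-up of the proteasome genes within the testis column was then set side by side across species. Each gene was taken relative to the median core subunit of its column, as testis minus liver. PSMB6, PSME2, PSMA8 and PSMB11 were left out by name. Over the other 34 genes with values in both species, the rat and wallaby differences had a Pearson r of 0.77 and a Spearman rho of 0.73. This is a description across genes of 1 testis and 1 or 2 liver columns, and genes are not independent replicates. Both species had 6 genes at least 1 higher, PSMF1, PSME4, PSMA6, PSMD10, PSMC5 and the cap scaffold PSMD2, out of 10 such genes in the rat and 7 in the wallaby. At least 1 lower in both were 7 genes, PSME1, PSMB8, PSMB10, PSMB3, PSMA1, PSMA7 and PSMD5, out of 10 in the rat and 8 in the wallaby. The same counts and correlation over all genes are not given, so whether the likeness is particular to proteasome genes cannot be said. PSMF1 differed by 3.85 in the rat and 3.05 in the wallaby, PSME4 by 3.14 and 2.90, and PSMA6 by 3.00 and 2.33. PSME3 went opposite ways, with -2.46 in the rat and 2.06 in the wallaby.

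For the marmoset testis the same measures were lower. With the same genes and also PSMA4 left out, r was 0.12 and rho 0.26 over 35 genes shared with the rat. Over 30 genes shared with the wallaby r was 0.19 and rho 0.20. PSMF1 was at 20.7 FPKM in marmoset testis, against 18.0 to 68.2 FPKM in the somatic columns, and PSME4 at 11.4 FPKM, below the somatic range of 12.0 to 38.7 FPKM. PSME1 was at 41.3 FPKM, against 1.82 to 14.9 FPKM. No member was called in marmoset testis, where 9.46 percent of all 16387 genes were higher and 2.86 percent lower, and 3 of 10 lay above and 3 below all somatic columns, against 20.9 and 14.5 percent of all genes. Of the 30 added entries, PSMA8 and PSME1 were called higher and PSMB2, PSMA1 and PSMD8 lower. Relative to the core, PSMA1 was at least 1 lower in testis than in liver in all 3 species. Its differences were -1.64 in marmoset, -1.54 in rat and -1.98 in wallaby. PSMB10 was also at least 1 lower in all 3, with -1.35, -2.55 and -4.69 in the same order. PSMD2 was at least 1 higher in all 3, with 1.92, 1.57 and 1.77.

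**Figure D5:**
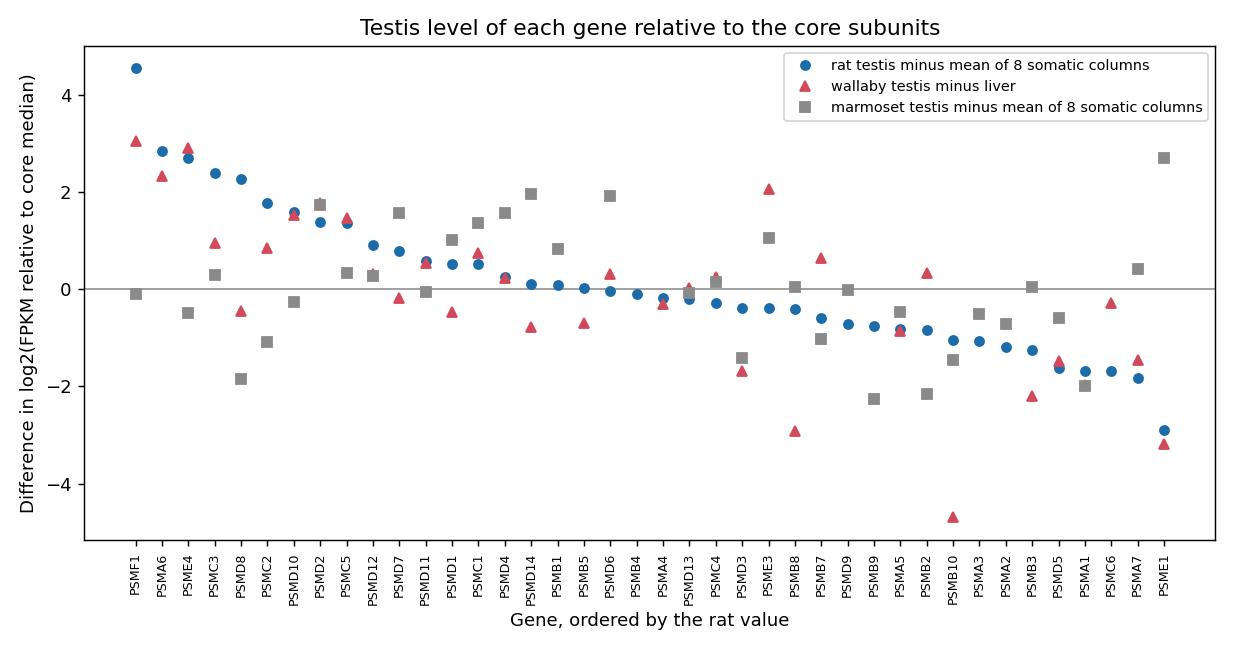
Difference in log2(FPKM relative to the core median) of each gene in testis, for rat and marmoset against the mean of their 8 somatic columns and for wallaby against liver, ordered by the rat value. Each symbol is 1 gene of 1 species. PSMB6, PSME2, PSMA8 and PSMB11 are not drawn, nor is PSMA4 of the marmoset. Wallaby values descend with the rat values from PSMF1 to PSME1, with PSMB10, PSMD8, PSMB8 and PSME3 furthest from the rat values, and the marmoset values scatter on both sides of 0.

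The ovary columns held no called member. In the rat 0 of 43 members were called, where 2.42 percent of all genes were higher and 0.336 percent lower, and in the marmoset 0 of 10, where 2.42 percent were higher and 0.832 percent lower. By position, 3 of 10 marmoset members and 10 of 29 added entries lay below all 8 somatic columns and none above, as did 2 of 43 in the rat, against 10.1 percent of all marmoset and 8.02 percent of all rat genes below and 11.7 and 8.87 percent above. Of the immune subunits, none of them called, Psmb8 was at 27.8 FPKM, Psmb9 at 23.5 FPKM and Psmb10 at 19 FPKM in rat ovary. Psmb8 and Psmb9 lay below both liver columns and above all other somatic columns, and Psmb10 lay within the somatic range. The leukocyte markers summed to 76.7 FPKM in rat ovary.

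With 1 animal of each sex per tissue, a difference between the sexes cannot be told apart from a difference between the animals, and none was tested. In rat kidney 33 of 43 members were higher in the male, with a median male minus female difference of 0.48, against 0.19 for all genes. There 8 members were higher in the male by at least 1, as were 14.7 percent of all genes. They were Psmb10, both Psmb6 entries, Psmd9, Psmb4, Psma1, Psmd13 and Psmb3, with Psmb10 at 25.2 FPKM in the male and 7.19 FPKM in the female. In rat heart, liver and brain the medians were 0.09, 0.04 and -0.03. In each marmoset tissue 8 of the 10 members were higher in the male, with medians from 0.30 in brain to 0.49 in liver. The medians of all marmoset genes were between 0.13 and 0.38. PSMB10 was higher in the male in every marmoset tissue, by 2.69 in heart, 2.50 in liver, 1.52 in brain and 1.28 in kidney.

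Genes that work with the proteasome were described from 3 lists. Of the antigen processing genes, 8 of 11 rose in rat liver and none fell (19.6 and 19.1 percent of all genes), with Calr (2.46), Tap1 (2.18) and B2m (2.14) furthest, and in rat brain 10 of 11 fell (27.1 percent of all genes). In rat heart 1 of 11 rose and 1 fell (16.7 and 17.3 percent of all genes). In the marmoset 8 of 12 rose in liver and 4 of 12 in kidney (21.3 and 13.7 percent of all genes), with B2M (1.91) and the peptide transporter TAP1 (1.86) in kidney. In that species 10 of 12 fell in brain (28.8 percent) and 2 of 12 fell in heart (18.2 percent). In wallaby testis 8 of 9 were lower than in liver (48.6 percent of all genes), and in rat testis 2 of 12 were lower, B2m among them (5.68 percent). Tap2 has more than 1 entry in the rat and is counted by entry.

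Of the assembly factors and associated enzymes, 6 of 14 rose and 1 fell in rat liver, against the same 19.6 and 19.1 percent of all genes. There the core assembly chaperone Psmg4 differed by 1.93 and Nfe2l2, whose relative NFE2L1 drives subunit transcription, by 1.77, and the deubiquitinase Usp14 by -1.09. In rat brain 7 of 14 fell, against 27.1 percent of all genes. In rat testis the deubiquitinase Uchl5 was the 1 of 14 called higher, at 50.7 FPKM, against 18.5 percent of all genes. In marmoset testis the core maturation factor POMP and the chaperone PSMG2 were the 2 of 15 called lower, with differences of -3.32 and -3.62 from the somatic mean, against 2.86 percent of all genes, and in wallaby testis 8 of 13 were lower, against 48.6 percent. Of the ubiquitin and shuttle genes, 8 of 15 rose in rat liver, against 19.6 percent of all genes. In rat testis 2 of 16 were called higher, Bag6 among them, which is no more than the 18.5 percent of all genes, and Uba1, the ubiquitin-activating enzyme, was called lower. In marmoset testis UBA1 was the 1 of 11 called higher, at 15.4 FPKM, near the 9.46 percent of all genes; UBA1 has a Y-linked copy in many mammals, and how reads were shared between copies is not given.

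The genes whose log2 pattern over the 10 columns was most like the mean of Psmb8, Psmb9 and Psmb10 in the rat were the TNF receptor gene Tnfrsf1b (Pearson r 0.99), C1s (0.98), Trub1 (0.98), RGD1563956 (0.98) and C1r (0.97), out of 14185 genes compared. In the marmoset they were LRP10 (0.97), MED11 (0.97), GRN (0.97), STING1 (0.96) and MAD2L2 (0.96), out of 13606, and no gene was among the first 5 in both species. Most like Psma8 in the rat were Fert2, Lrrc46, RGD1307325, Cep57l1 and Crisp2, each at an r of at least 0.99, in company with 670 genes at 0.9 or more. Such a pattern rests on 1 high column and is shared by many testis genes. Among the genes most like PSMA8 in the marmoset were SCGB1D1, POLE3, RNF8 and ANKRD11 (0.98 to 0.99).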

How the data were processed

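Polyadenylated RNA was sequenced, and the authors deposited FPKM values per gene, made with TopHat 1.4.0 and Cufflinks 2.0.0 per the submitters' processing notes. The sources used here name neither the genome build nor the method of normalization across tissues. There are no read counts, so depth is unknown, and the low values show no whole-read steps. Of the per-sample columns, 8 were not used, and none of these holds a value above 0. The marmoset testis column stands for 3 samples.

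Members and gene lists were chosen with earlier results of these data known. Values were taken as log2(FPKM + 1), and those relative to the core as log2 FPKM. Somatic tissues were compared with limma 3.58.1 (trend) in R 4.3.3 over genes at 1 FPKM or more in at least 2 columns, testis and ovary over genes at 1 FPKM in at least 1. The animal was a block, since the labels give heart, kidney, liver and brain of a sex the same individual. The male minus female differences of 2 tissues correlated at 0.54 to 0.71 over 15479 marmoset genes and at 0.14 to 0.50 over 15063 rat genes. Named genes were, by rule, the catalytic, immune, thymic, testis, activator and inhibitor genes with PSMA7, up to 5 called members with the largest differences in each direction, up to 3 genes of each pathway list and the 5 genes of most alike pattern; Psma6, Psmd9, the members higher in 1 sex and those named for their position relative to the core were chosen after their values were seen. A few genes that the rule would name are not reported here. The fits were tested on simulated data. Alternatives were another pseudocount, no filter, columns rescaled to 1 total or 1 median, no block, no brain columns, a limma fit of the lone column and leaving out each column. Descriptions used Python 3.11.15 with pandas 2.3.3, numpy 2.4.6 and matplotlib 3.10.9.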

Additional observations from a re-analysis of the deposited data

Results flagged for a closer look

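For 6 genes the testis column lay above all 8 somatic columns in marmoset or rat and below all of them in the other. Over all genes, 20.9 percent lay above and 14.5 percent below in marmoset testis, and 27.7 and 23.3 percent in rat testis. The share of all genes that lay on opposite sides in these species is not given. Values are testis minus the somatic mean on the log2(FPKM + 1) scale, and the difference between species was not tested. PSMD6, a cap subunit, was at 1.48 in marmoset and -0.85 in rat. The alpha subunit PSMA4 (marmoset entry on chromosome 18, 1 of 2) was at 1.69 in marmoset and -1.01 in rat. The other marmoset PSMA4 entry, on chromosome 14, was at 59.8 FPKM in testis, within its somatic range of 24.1 to 103 FPKM. The PA28 subunit PSME1 was at 2.12 in marmoset and -2.83 in rat. The ATPase PSMC2 was at -1.43 in marmoset and 0.91 in rat, the cap subunit PSMD8 at -2.18 in marmoset and 1.39 in rat, and the PA200 activator PSME4 at -0.84 in marmoset and 1.76 in rat. The male germ cell markers summed to 31.8 FPKM over 5 genes in marmoset testis and to 17315 FPKM over 10 in rat testis, and their part was not tested.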

How the results depend on the processing

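Rescaling each column to 1 total gave 7 members called in marmoset liver (0 higher), 1 in marmoset brain, 1 in marmoset testis, 25 in rat heart (0 higher), 2 in rat kidney, 6 in rat liver, 11 in rat brain, 9 in rat testis, 2 in rat ovary and 20 in wallaby testis. It turned the sign of these named differences that had been called: in marmoset PSMB3 (-0.45) and PSMD3 (-0.27) in liver and PSMD3 (0.58) in brain, and in rat heart Psma2 (-0.42), PSMB6 (-0.43), Psmc6 (-0.31), Psme4 (-0.22), Psma1 (-0.070), Psma6 (-0.45) and Psme1 (-0.35), in rat brain Psma7 (0.08), Psmf1 (0.36), Psma6 (0.19) and Psmb5 (0.37), and in wallaby testis PSMB7 (0.35). Scaling to 1 median, chosen after seeing the data, gave 1 each in marmoset liver, brain and testis, 9 in rat liver and 9 in rat brain. Without the animal block, that is without the pairing of tissues by animal, 0 members were called in marmoset liver and 1 in marmoset brain, and other counts stayed within 1.5 times. Without the brain columns there was 1 each in marmoset kidney and liver, 4 in rat heart, 11 in rat kidney, 9 in rat liver and 11 in rat testis. The limma fit of the lone column called 4 in marmoset testis, 28 in rat testis and 1 in rat ovary. Leaving out 1 column gave 1 to 3 in marmoset brain, 0 to 2 in marmoset heart, 0 in marmoset kidney, 1 to 2 in marmoset liver, 0 to 1 in marmoset testis, 10 to 22 in rat brain, 4 to 9 in rat heart, 0 to 1 in rat kidney, 12 to 17 in rat liver, 7 to 10 in rat testis and 0 in both ovaries. The lowest rat brain and heart counts came without the male brain and the male heart column. Of the values under alternatives for up to 5 called members in each direction and comparison, 363 kept direction and side of the threshold, 24 lost the threshold and 8 turned sign. The cause was not tested in any case. Counts under the alternatives, here and above, are of members only. They are given without the share of all genes called under the same setting. With 2 animals per tissue and depth unknown, differences at low FPKM are the least certain.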
